A study of Homo sapiens with 72 samples.

Results

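The replication-dependent histone genes were followed in population RNA-seq libraries of U2OS, a human osteosarcoma cell line, after 12 h with each of 6 small molecules. The genes were chosen by symbol in GENCODE release 44 as the numbered H1, H2A, H2B, H3 and H4 genes of the histone clusters (H1-1 to H1-6, H2AC, H2BC, H3C and H4C), and were matched by Ensembl identifier. This gave 69 protein-coding genes, of which 65 were found among the 60371 genes of the files. The other 4 were H2AC18, H2AC19, H3C2 and H3C3, which are not analysed here.

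The 72 libraries comprised 18 wells with DMSO, the solvent, and 3 wells for each compound at 100 nM, 1000 nM and 10000 nM. The compounds were triptolide (labelled JAA804), which binds a subunit of the general transcription factor TFIIH, homoharringtonine (LEE837), which blocks the elongation step of translation, pyrazolanthrone (AML108), an inhibitor of JNK kinases, nilotinib (AMN107), an inhibitor of the ABL kinase, miglitol (BGW675), an inhibitor of alpha-glucosidases, and MK-2206 (LHD510), an inhibitor of AKT kinases. All groups shared 1 line, 1 medium and 1 time point, and nothing in the labels says that wells of a group came from separate cultures, so the p-values measure the spread between wells. The libraries were prepared from RNA with a poly(A) tail.

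Replication-dependent histones package DNA that is newly made in S phase. Their mRNAs are unusual among those of animals: most end in a short stem-loop, bound by the protein SLBP, rather than in a poly(A) tail, and the cut that makes this end is guided by the U7 small nuclear RNA. Histone mRNAs are destroyed soon after DNA synthesis stops. A library that selects poly(A) RNA therefore sees the minority of histone transcripts that carry a tail, and a change in such a library may be one of amount or one of the share with a tail, which cannot be told apart here. In bulk samples, fewer cells of a type and less RNA per cell cannot be told apart either.

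The histone stem-loop was searched as 16 letters (GG, any pair of bases, CTTTT, any base, AG, any pair of bases, CC) on the sense strand of the 300 bases of GRCh38 that follow the stop codon. It was present in 62 of the 65 genes and in 4 of 19536 windows of other protein-coding genes, which is 0.02% of them (H2AX, H3-4, H3-7 and TIPARP). The 3 genes without these letters in the window were H2BC10, H3C6 and H4C13. The first base of the stem-loop lay 23 to 63 bases after the stop codon in these genes, with a median of 36. There were 7 distinct versions, of which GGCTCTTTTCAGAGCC was the most frequent, in 36 genes, followed by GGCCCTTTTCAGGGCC in 10. The following 6 sites, with the 16 letters in capitals, belong to the genes whose values carry the results below; they are all on GRCh38.
H1-2: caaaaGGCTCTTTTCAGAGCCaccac
H2BC12: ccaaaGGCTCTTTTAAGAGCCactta
H3C4: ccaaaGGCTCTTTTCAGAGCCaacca
H3C14: caaaaGGCTCTTTTCAGAGCCaccca
H4C8: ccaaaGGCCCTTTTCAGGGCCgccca
H4C14: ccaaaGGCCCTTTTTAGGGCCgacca
They lie at chr6:26055739-26055764 on the minus strand for H1-2, chr6:27146361-27146386 (minus) for H2BC12, chr6:26196784-26196809 (minus) for H3C4, chr1:149840687-149840712 (minus) for H3C14, chr6:26285126-26285151 (minus) for H4C8 and chr1:149833027-149833052 (plus) for H4C14. H4C8 and H4C14 shared the GGCCC stem, and the other 4 had the GGCTC stem. The poly(A) signal letters AATAAA were present downstream of 7 of the 65 stop codons, against 27.549% of all 19605 protein-coding windows. One of the 7 was H1-2, with the signal starting 56 bases after the stop codon, beyond its stem-loop, which starts at base 28. A match of letters is a description and was not tested as a processing site.

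Promoters were available for 60 of the genes (RefSeq, GRCh38.p14, 250 bases before to 50 after the start), and motifs were searched on both strands. The octamer ATTTGCAT, to which OCT factors bind, was present in 26 of the 60, against 1.77% of 35116 promoters of all genes. It was found in 11 of 14 H2A and 14 of 18 H2B promoters, in 1 of 9 H3 promoters and in no H1 or H4 promoter. The 1 among the H3 genes was listed for H3C4, which has the same start as H2AC7 in that table, so that both hold the same sequence. TATAAA was present in 39 of the 60, against 11.53% of all, and CCAAT in 50, against 34.61%. Among the H4 promoters 3 of 13 held CCAAT. The promoter of H2BC12, the highest of these mRNAs per length of gene in DMSO wells, is shown because it holds all of these letters, in capitals (chr6:27146809-27147108, minus strand, GRCh38.p14), where the reverse complement of a motif is also capitalised.
H2BC12 promoter: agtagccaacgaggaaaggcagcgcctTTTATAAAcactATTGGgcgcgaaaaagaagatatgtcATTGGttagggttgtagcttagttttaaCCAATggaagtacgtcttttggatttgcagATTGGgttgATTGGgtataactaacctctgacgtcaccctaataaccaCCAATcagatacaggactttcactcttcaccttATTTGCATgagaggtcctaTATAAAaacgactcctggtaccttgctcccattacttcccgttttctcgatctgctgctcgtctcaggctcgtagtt
The 60 promoters are not all independent. H3C4 and H2AC7 share 1 sequence, and the promoters of H4C14 and H4C15 hold the same letters. Pairs of H2A and H2B genes on opposite strands, such as H2AC6 and H2BC4, have overlapping promoters. A motif in such an overlap is counted for both genes, so the H2A and H2B counts are in part of the same sites.

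The wells held 70767 to 68296309 expected counts (median 38369495). The 3 libraries with fewer than 10000000 were triptolide 100 nM replicate 2, with 70767 counts of which 24 fell on the histone genes, DMSO replicate 10, with 460014 of which 290 fell on them, and triptolide 1000 nM replicate 1, with 9628355. A 0 in the first pair of these wells is within their counting error. In the well of 70767 counts the value of any 1 histone gene rests on at most 24 counts. Of the markers of a mesenchymal line, VIM, SPARC, FN1 and CD44 had DMSO medians of 374 TPM or more (TPM is a level per length of gene, scaled to a fixed total per library), RUNX2 had 3.81 TPM and COL1A2 was near absent at 0.07 TPM. Of 8 markers of other cell types, EPCAM (2.38 TPM) and CD34 (1.91 TPM) were the highest, the defining marker ALB had a median of 0, and CDH1, PTPRC, PECAM1 and GFAP were at or below 0.4 TPM. The summed level of these 8 was 1.23 to 6.83 TPM in DMSO wells, 6.28 to 9.36 TPM with 10000 nM homoharringtonine and 7.23 to 9.97 TPM with 10000 nM triptolide, and the summed mesenchymal markers were 4010 to 5540, 1730 to 1830 and 6350 to 7590 TPM in the same order. The part of these markers in the results was not tested.

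In DMSO wells 2 genes made up most of the histone signal. H2BC12 had a median level of 640 TPM (range 504 to 785 TPM, n = 18) and H1-2, a linker histone gene, 368 TPM (261 to 572 TPM). By expected counts, which are not scaled to length, the order was the other way, with medians of 4710 for H1-2 and 3580 for H2BC12. Together they held 69.1% of the summed TPM of the 65 genes in the median DMSO well (60.1 to 72.3%). The next levels were those of H4C14 (97.1 TPM), H2BC11 (76.4 TPM), H2BC5 (37.8 TPM), H2BC4 (27.8 TPM), H2BC21 (27.1 TPM), H2AC6 (26.9 TPM), H4C8 (24.0 TPM) and H4C11 (18.2 TPM). The ranges of neighbours from H2BC4 to H4C8 overlapped, so that their order is not resolved by the spread between wells, whereas the lowest H2BC12 well exceeded every H4C14 well. In all, 35 genes had a median of at least 1 TPM, 11 of at least 10 TPM, 20 had a median of 0 and 3 were at 0 in all 72 wells. Among the H3 genes, H3C14 and H3C15, which are 1 measurement under 2 names, summed to a median of 11 TPM (5.9 to 17.1 TPM), and H3C4 had a median of 6.02 TPM. H3 was the family with the lowest summed level (8.6 to 34.9 TPM, against 140.2 to 310.5 TPM for H4). Its protein is needed in the same amount as that of H4 in each nucleosome. The H3 sum covers 11 of 13 genes, without H3C2 and H3C3, and the H4 sum all 15. TPM also depends on the modelled length, which was 1656 bases for H3C14 and H3C15 and 714.3 for H4C14. The part of either in the difference was not tested.

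Testing needed a minimum of counts, which 35 of the 65 genes reached in every comparison with DMSO. H1-6, H2AC25, H2BC8 and H2BC18 reached it with homoharringtonine at 1000 nM and 10000 nM but not at 100 nM against DMSO, and so passed through the wells in which they were high. H2AC4 and H2AC8 were tested only in a comparison between treated groups. The remaining 24 were never tested: H1-3, H1-5, H2AC1, H2AC15, H2AC16, H2AC17, H2BC1, H2BC3, H2BC6, H2BC9, H2BC10, H2BC17, H2BC26, H3C6, H3C7, H3C8, H3C11, H3C12, H3C13, H4C4, H4C6, H4C7, H4C12 and H4C13. H3C14 and H3C15 had identical values in all 72 wells and are 1 measurement reported under 2 names, since RSEM shares reads equally between copies it cannot tell apart.

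**Figure D1:**
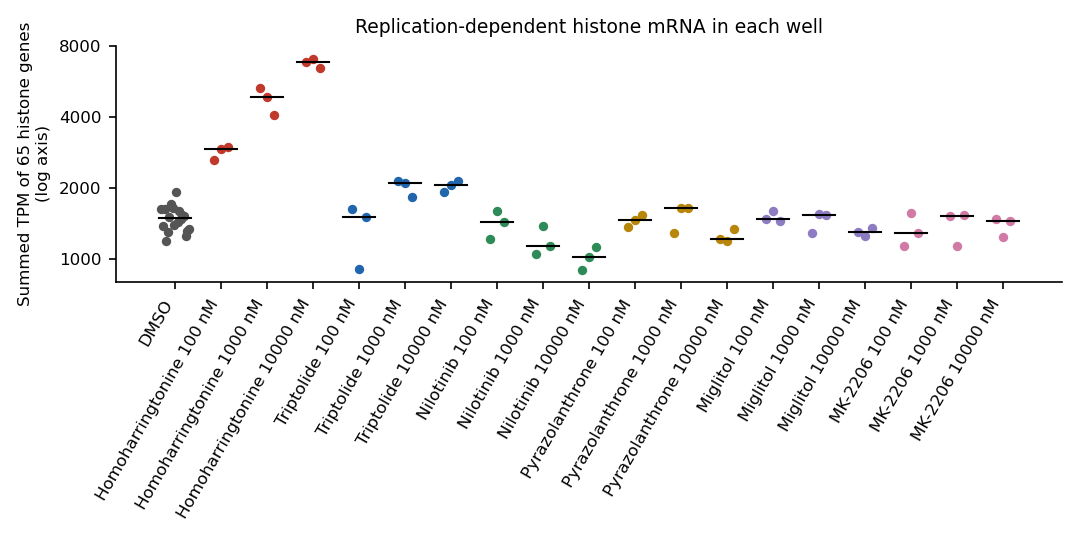
Summed TPM of the 65 histone genes in each of 72 wells (log axis); each point is a well, each line the median of a group, and colours mark compounds. The 9 homoharringtonine wells lie above all DMSO wells, and the lowest triptolide point is the well of 70767 counts.

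Homoharringtonine raised the histone genes as a group, in all families and at all 3 doses. The summed level was 1192 to 1925 TPM in DMSO wells, with a median of 1496 TPM. At 100 nM homoharringtonine it was 2626, 2922 and 2972 TPM, at 1000 nM 5296, 4838 and 4065 TPM, and at 10000 nM 6788, 7014 and 6440 TPM. All 9 wells were above every DMSO well, and the ratios of medians to DMSO were 1.95, 3.23 and 4.54 with rising dose. Without H2BC12 and H1-2 these ratios were 2.81, 5.86 and 9.23, and the share of H2BC12 and H1-2 fell to 39.5% in the median well at 10000 nM. The families moved by different amounts: at 10000 nM the H4 sum was 2179 to 2233 TPM and the H3 sum 190.4 to 205.2 TPM, while the H1 sum was 806.7 to 982.1 TPM against 268.7 to 577.6 TPM in DMSO wells.

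A gene was called higher or lower at an adjusted p under 0.05 in edgeR's quasi-likelihood test with a log2 fold change above 1 or below -1. At 100 nM homoharringtonine 24 of 35 tested histone genes were higher and 1 lower, where 15.6% of 18848 tested genes were higher and 19.3% lower. At 1000 nM 33 of 39 were higher and 0 lower (21.5% and 20.9% of all genes), and at 10000 nM 34 of 39 were higher and 0 lower (23.6% and 23.4%). No histone gene was lower at 1000 nM or 10000 nM at an unadjusted p under 0.05 either, and DESeq2 gave the same 0. Of the 35 genes tested in every comparison, 29 were higher at 1000 nM and 30 at 10000 nM. The median log2 fold change of these 35 was 1.41, 1.77 and 1.63 with rising dose, and that of all tested genes -0.03, -0.01 and -0.05. At 10000 nM the higher genes among the 35 were 2 of 3 for H1, 6 of 8 for H2A, 9 of 9 for H2B, 4 of 5 for H3 and 9 of 10 for H4. The other 4 genes tested at 1000 nM and 10000 nM were all higher, and had passed the filter through those wells. In all, 23 genes were higher at all 3 doses, with H3C14 and H3C15 counted as 2. The share of all genes higher at all 3 doses was not computed.

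**Figure D2:**
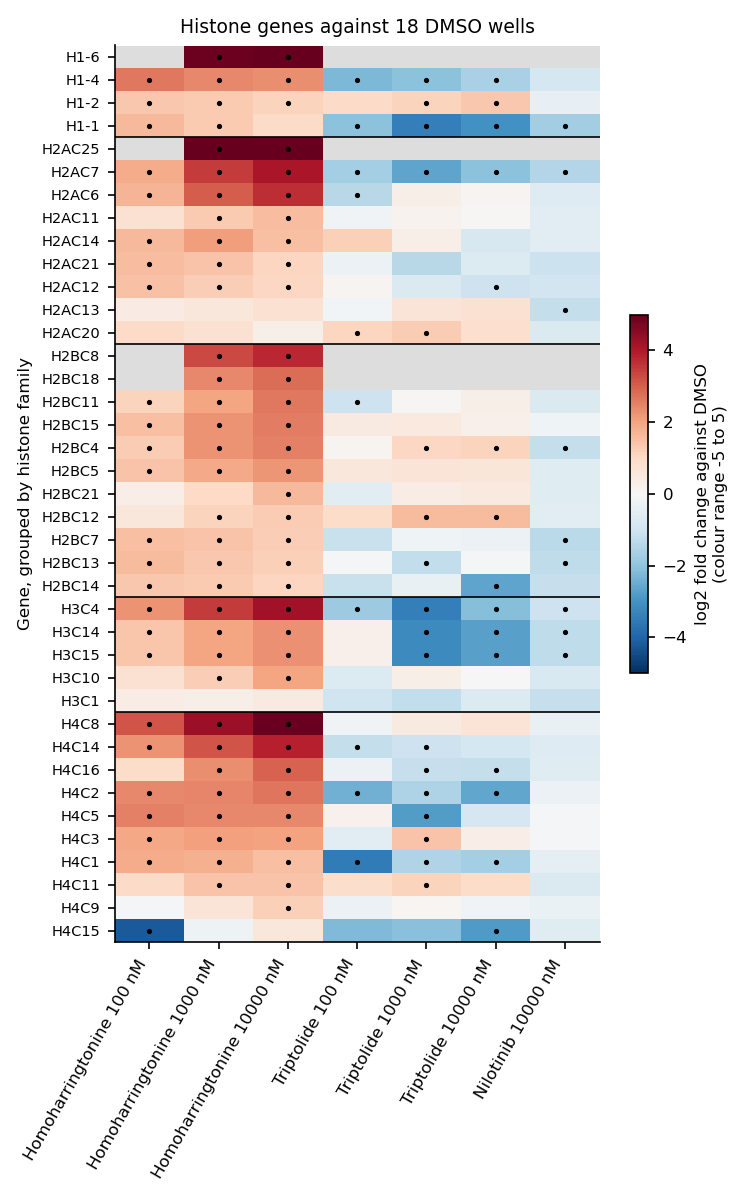
Log2 fold change of the 39 histone genes tested against 18 DMSO wells with homoharringtonine, triptolide and 10000 nM nilotinib (columns), grouped by family and ordered by the homoharringtonine 10000 nM value; dots mark called genes and grey cells were not tested. The homoharringtonine columns are nearly all red, and the triptolide columns hold both colours.

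H4C8, an H4 gene, rose the most among the genes with counts in every DMSO well. Its level in normalised CPM (CPM, counts scaled to the size of the library, here with TMM factors) was 1.53, 3.43 and 7.01 as the lowest, median and highest of the DMSO wells. With homoharringtonine it was 30.3, 30.8 and 30.3 at 100 nM, 68.1, 75.4 and 54.6 at 1000 nM, and 111, 120 and 93.9 at 10000 nM. Every treated well was above every DMSO well, and the doses did not overlap each other. The log2 fold changes were 3.16, 4.26 and 4.95 (SE 0.15, 0.15 and 0.14), with an adjusted p of 4.3e-19 at 10000 nM.

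H4C14, the most abundant H4 gene, had 24.1, 36.5 and 87.6 normalised CPM in DMSO wells (lowest, median, highest). It had 173, 172 and 169 at 100 nM, 336, 325 and 297 at 1000 nM and 546, 563 and 528 at 10000 nM, all above the DMSO wells, with log2 fold changes of 2.25, 3.13 and 3.88 (SE 0.18, 0.18 and 0.17). H4C15, a near-identical copy, had 0.749, 0.0305 and 0.953 normalised CPM at 100 nM and 7.14, 4.2 and 38.5 at 10000 nM, against 0 to 22.6 in DMSO wells, so that its groups overlapped at every dose. RSEM divides the reads of such copies by estimate, and the 1 histone gene called lower at 100 nM was H4C15 (log2 fold change -4.21, SE 1.05). With both copies summed, the mean was 48.7 ± 10.4 normalised CPM in DMSO wells (SD, n = 18) and 172 ± 1.58, 329 ± 14 and 562 ± 7.97 (SD, n = 3) with rising dose, a log2 fold change of 1.87 at 100 nM (SE 0.11, adjusted p = 2.1e-13) and 2.79 at 1000 nM (SE 0.11).

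H3C4 had the largest log2 fold changes among the tested H3 genes at all 3 doses. Its DMSO wells ran from 0 through a median of 0.932 to 1.28 normalised CPM, where the 0 is the well of 460014 counts. The homoharringtonine wells had 3.92, 4.7 and 4.6 at 100 nM, 11.9, 10.9 and 8.37 at 1000 nM and 18.1, 19.2 and 15 at 10000 nM. None overlapped the DMSO wells, and the log2 fold changes were 2.26, 3.49 and 4.21 (SE 0.19, 0.18 and 0.16). H3C14, measured with its copy H3C15, had 3.5, 5.65 and 7.9 normalised CPM in DMSO wells and 13.9, 14.6 and 17.1 at 100 nM, 27.6, 22.1 and 18.1 at 1000 nM and 30.5, 29.4 and 26.1 at 10000 nM. Its wells were again all above DMSO, with smaller log2 fold changes of 1.40, 1.96 and 2.27 (SE 0.15, 0.15 and 0.13). The sum of both names was 11.4 ± 2.35 normalised CPM in DMSO wells (SD, n = 18) and 57.4 ± 4.6 at 10000 nM (SD, n = 3).

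Of the genes for H2A and H2B, which pair with each other in the nucleosome, H2AC6 and H2BC11 moved strongly with dose. H2AC6 had 20.2, 27.6 and 61.3 normalised CPM in DMSO wells, 91.9, 89.5 and 89.6 at 100 nM, 218, 208 and 263 at 1000 nM and 357, 324 and 416 at 10000 nM. H2BC11 had 14.6, 18.7 and 24.5 in DMSO wells, 39.9, 41.7 and 39.7 at 100 nM, 78.8, 78.7 and 66.7 at 1000 nM and 123, 128 and 105 at 10000 nM. Neither gene had a homoharringtonine well within its DMSO range. The log2 fold changes were 1.70, 3.03 and 3.68 for H2AC6 (SE 0.14, 0.13 and 0.12) and 1.12, 1.99 and 2.63 for H2BC11 (SE 0.11, 0.10 and 0.10).

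H2BC12, the gene with the highest TPM in DMSO wells, changed less. It had 55.5, 85.2 and 127 normalised CPM in DMSO wells, 122, 130 and 144 at 100 nM, 265, 177 and 130 at 1000 nM and 229, 246 and 171 at 10000 nM. The wells at 100 nM overlapped DMSO and this dose was not called (log2 fold change 0.58, SE 0.18), while at 1000 nM and 10000 nM the values were 1.10 (SE 0.19, adjusted p = 1.8e-05) and 1.25 (SE 0.16, adjusted p = 3e-07). The value at 1000 nM was 0.78 without replicate 1 and 0.96 with library sizes alone, and that at 10000 nM was 0.91 on a scale set by mitochondrial mRNAs, all under the fold threshold of 1. H2AC20 had 0, 1.3 and 2.09 in DMSO wells and 2.66, 2.53 and 3.2, then 3.41, 2.55 and 1.45, then 1.79, 2.13 and 1.54 with rising dose. It was called at no dose, with log2 fold changes of 0.96, 0.76 and 0.29 (SE 0.21, 0.24 and 0.21).

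The linker histone genes H1-2, H1-4 and H1-1 rose by an amount that did not grow with dose. H1-2 had 79.2, 118 and 159 normalised CPM in DMSO wells, and 258, 297 and 315 at 100 nM, 379, 268 and 211 at 1000 nM and 266, 289 and 220 at 10000 nM. H1-4 had 1.04, 1.87 and 2.4 in DMSO wells, and 10.1, 10.4 and 12.1, then 14, 8.5 and 6.18, then 10.5, 8.82 and 7.84 in the same order. All of these wells were above DMSO. The log2 fold changes were 1.33, 1.29 and 1.12 for H1-2 (SE 0.15, 0.17 and 0.15) and 2.62, 2.42 and 2.32 for H1-4 (SE 0.17, 0.20 and 0.17). H1-1 had 0, 0.497 and 0.859 in DMSO wells and 1.58, 1.65 and 1.74 at 100 nM, 1.9, 1.13 and 0.902 at 1000 nM and 1.11, 1.13 and 0.931 at 10000 nM. Its log2 fold changes were 1.64 and 1.29 (SE 0.22 and 0.25) and then 0.95 at 10000 nM (SE 0.24), which is under the threshold of 1. The value at 1000 nM was 0.91 without replicate 1. On the mitochondrial scale H1-2 had 0.79 at 10000 nM and was not called.

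The genes with the largest fitted rises at 1000 nM were nearly silent in DMSO wells. H2AC25 had no count in any of the 18 DMSO wells. It had 7 to 8 counts per well (23 in all) at 100 nM, 19 to 33 at 1000 nM (77 in all) and 12 to 39 at 10000 nM (88 in all). Against a floor of 3 counts over all DMSO wells together (0.00446 CPM), it was 44-fold, 118-fold and 138-fold higher, before TMM scaling. The floor allows for counting error in the DMSO wells only, and not in the treated wells. H1-6, a linker histone gene known from the testis, had 7 counts over 6 of the 18 DMSO wells, and 16, 54 and 68 counts in all with rising dose. H1-6 overlaps H2BC4 in the annotation, and the strand setting used for counting is not given in the sources used here, so reads of these genes may not be told apart. The same limit holds for H2AC25, which overlaps RPL23AP15, and for H4C3, which overlaps H2BC4. In all, 31 of the 65 genes overlap another annotated gene. The normalised CPM of H2BC4 was 6.83, 8.37 and 26.3 in DMSO wells and 49, 55.2 and 47.4 at 10000 nM.

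**Figure D3:**
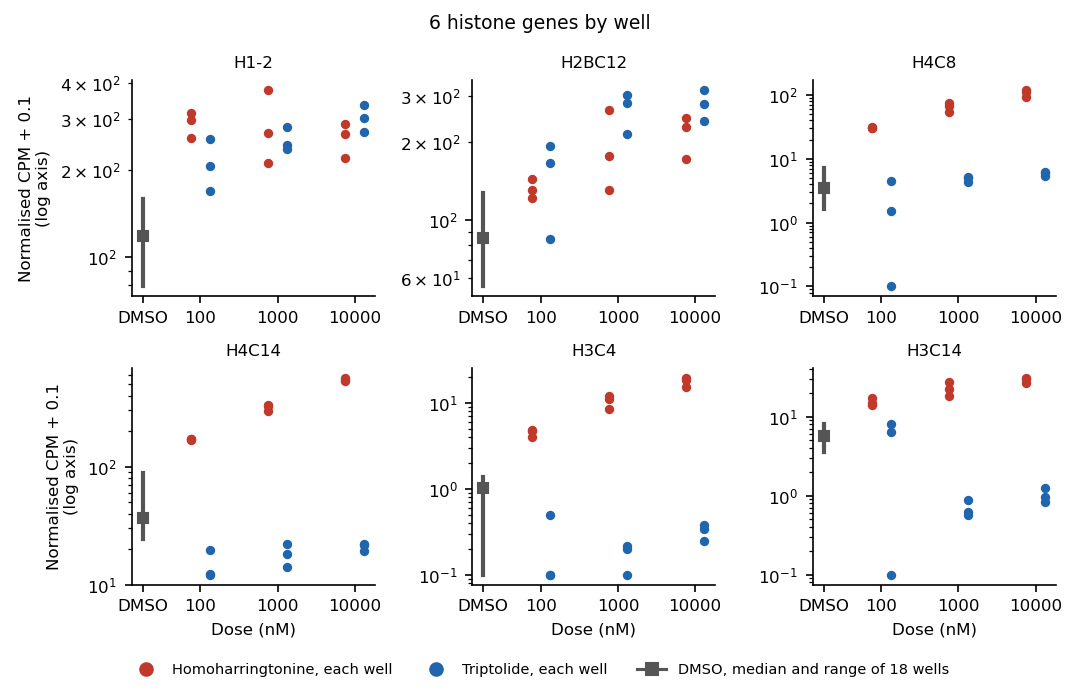
Normalised CPM plus 0.1 (log axes) of 6 histone genes in each homoharringtonine (red) and triptolide (blue) well by dose in nM, beside the median and range of 18 DMSO wells (grey). H1-2 and H2BC12 rise with both compounds on this scale, while H4C14, H3C4 and H3C14 separate in opposite directions at 1000 nM and 10000 nM.

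The highest and the lowest dose of homoharringtonine were compared directly, a comparison chosen after the data had been seen. At 10000 nM 17 of 40 tested histone genes were higher than at 100 nM and 0 were lower (14.3% and 9.53% of 17788 tested genes), with 2 lower at an unadjusted p under 0.05 and 0 lower by DESeq2. The steepest besides H4C15 were H2AC7 (log2 difference 2.21, SE 0.18), H4C16 (2.05, SE 0.12), H2AC6 (1.97, SE 0.10), H3C4 (1.94, SE 0.15) and H4C8 (1.80, SE 0.13). A second set did not rise further: H1-2 changed by -0.21 (SE 0.13), H1-4 by -0.30 (SE 0.14), H4C5 by -0.08 (SE 0.20) and H4C3 by 0.09 (SE 0.21). H1-1 (-0.69, SE 0.19, adjusted p = 0.014) and H2AC20 (-0.67, SE 0.19, adjusted p = 0.016) had all wells at 10000 nM below all wells at 100 nM, without reaching the fold threshold.

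Both sets had the stem-loop, but they differed in how long their transcripts were modelled. In the files 37 of the 65 genes had the length of their coding part only, and 28 were longer, so that reads outside the coding part could be counted for them. Among the 35 genes tested in every comparison with DMSO, 11 of 20 with a longer model and 2 of 15 of coding length only were higher at 10000 nM than at 100 nM, with median log2 differences of 1.11 and -0.27. The other 4 of the 17 higher genes were H1-6, H2AC25, H2BC8 and H2BC18, which have longer models and passed the filter through the high wells. The split had exceptions on both sides. With a longer model 9 genes were not called, H4C3 among them. The 2 higher genes of coding length only were H2AC7 and H3C4, which lie inside a readthrough gene of GENCODE release 44 that was not among the identifiers of the files. They also lie inside a pair of longer annotated genes, 1 or both of which cover H1-4, H2BC7 and H4C5, of coding length only and not called. At 100 nM against DMSO, 12 of 20 genes with a longer model and 12 of 15 of coding length only were higher, with medians of 1.32 and 1.53. The split was not tested over the genes, which share clusters and reads.

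**Figure D4:**
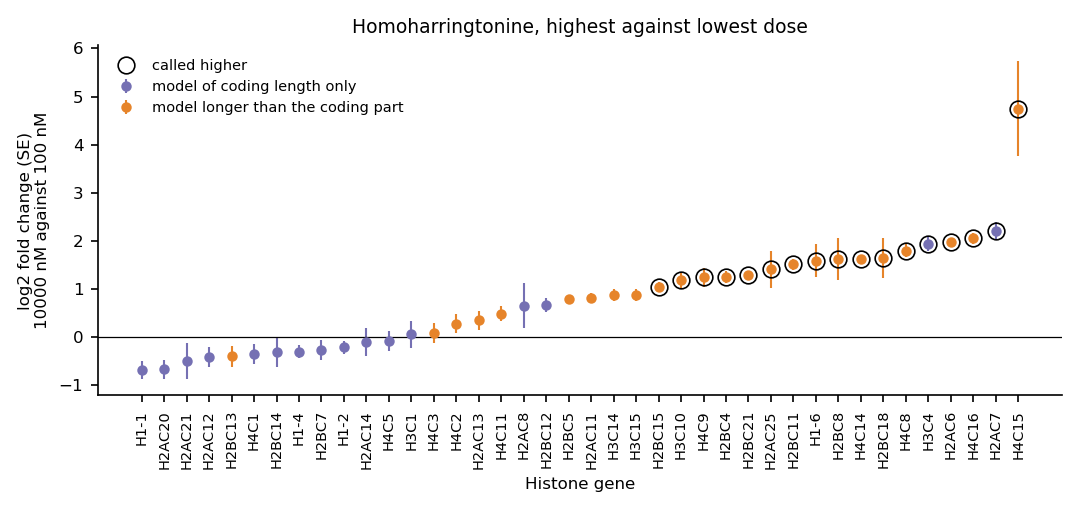
Log2 fold change of 40 histone genes between homoharringtonine at 10000 nM and 100 nM, with its SE, in rising order; colour marks whether the gene's length in the files is that of its coding part only, and rings mark called genes. The 16 genes of coding length only lie mostly below 0 and hold 2 of the 17 rings, and 4 of the other rings belong to H1-6, H2AC25, H2BC8 and H2BC18.

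With triptolide histone genes moved in both directions on the TMM scale, as did all tested genes. At 1000 nM 6 of 35 tested genes were higher and 12 lower, where 13.9% of 18589 tested genes were higher and 30.4% lower. At 10000 nM 3 were higher and 12 lower (16.2% and 30.2% of all genes), and at 100 nM 1 was higher and 9 lower (11.4% and 20.9%). Without the libraries under 10000000 counts, 4 were higher at 100 nM. The lower shares lie near those of all genes, and the median log2 fold changes with rising dose were -0.31, -0.22 and -0.31, against -0.16, -0.21 and -0.17 over all genes. The summed level was 1639, 907.4 and 1510 TPM at 100 nM, 2150, 2111 and 1831 TPM at 1000 nM and 1916, 2056 and 2138 TPM at 10000 nM, partly above the DMSO range. Without H2BC12 and H1-2 it was 282.0 to 315.2 TPM at 1000 nM and 271.7 to 297.6 TPM at 10000 nM, below every DMSO well (399.4 to 769.0 TPM). H2BC12 and H1-2 held 85.5% of the sum in the median well at 10000 nM.

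The values with triptolide depend on the scale, since TMM takes the bulk of genes as unchanged. When libraries were scaled to the 13 mitochondrial mRNAs, the median of all genes moved by -1.66, -2.47 and -2.76 with rising dose. The number of lower histone genes became 30, 33 and 35 of 35 and none was higher, and the rises given here for H1-2, H2BC12, H2AC20 and H4C3 have log2 fold changes below 0 on that scale. Over all tested genes, 74.5%, 93.6% and 97.3% were lower there, so a high share was not particular to the histone genes. The same scaling moved the median of all genes by -0.09, -0.08 and -0.27 with homoharringtonine.

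At 1000 nM and 10000 nM triptolide H2BC12 had the largest rise among the histone genes on the TMM scale, while at 100 nM it was not called (log2 fold change 0.92, SE 0.19). The 1 gene higher at 100 nM was H2AC20 (1.09, SE 0.28, adjusted p = 0.0017 in edgeR's quasi-likelihood test), which had 0.69 without replicate 3. H2BC12 had 55.5 to 127 normalised CPM in DMSO wells and 192, 84.3 and 166 at 100 nM, 282, 302 and 214 at 1000 nM and 240, 280 and 317 at 10000 nM. The wells at the 2 higher doses were all above DMSO, with log2 fold changes of 1.58 and 1.60 (SE 0.17 and 0.16), and -0.90 and -1.24 on the mitochondrial scale. H1-2 had 256, 169 and 207, then 245, 283 and 237, then 270, 302 and 335 with rising dose, all above the highest DMSO well of 159. Its log2 fold changes were 0.94, 1.12 and 1.33 (SE 0.17, 0.15 and 0.15), and at the 2 higher doses 0.67 and 0.79 with library sizes alone and -1.36 and -1.50 on the mitochondrial scale. H2AC20 had 3.99, 4.07 and 2.72 at 1000 nM against at most 2.09 in DMSO wells, with a log2 fold change of 1.27 (SE 0.23, adjusted p = 3.1e-05, library sizes alone 0.83, mitochondrial scale -1.19). H4C3 had 1.54, 0.814 and 0.194 at 1000 nM, overlapping the DMSO range of 0 to 0.718 (log2 fold change 1.41, SE 0.47, adjusted p = 0.026, mitochondrial scale -0.90), and this call rested on replicate 1, without which the value was 0.57. At 10000 nM it had 0.316, 0.29 and 0.475 and was not called.

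Of 5 tested H3 genes, H3C4 was lower at all 3 doses, and H3C14 and H3C15, the 1 measurement with 2 names, at 1000 nM and 10000 nM. H3C14 had 7.88, 0 and 6.28 normalised CPM at 100 nM, where the 0 belongs to the well of 70767 counts and the other pair lies within the DMSO range of 3.5 to 7.9. It had 0.515, 0.465 and 0.777 at 1000 nM and 0.87, 0.726 and 1.15 at 10000 nM, all below DMSO. The log2 fold changes were 0.27, -3.18 and -2.71 (SE 0.21, 0.26 and 0.23), with an adjusted p of 9.3e-11 at 1000 nM. H3C4 had 0.39, 0 and 0 at 100 nM, 0, 0.116 and 0.0971 at 1000 nM and 0.277, 0.145 and 0.237 at 10000 nM, below the 0.52 to 1.28 of the 17 deeper DMSO wells. The first 0 at 100 nM is again that of the well of 70767 counts, too shallow to be read as a fall. The log2 fold changes of H3C4 were -1.80, -3.43 and -2.11 (SE 0.49, 0.48 and 0.34). The summed H3 level at 10000 nM was 4.0 to 5.0 TPM, below all DMSO wells.

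The genes H1-1, H1-4, H2AC7, H3C4, H4C1 and H4C2 were lower with triptolide at all 3 doses and none was higher at all 3. At the single doses 20.9%, 30.4% and 30.2% of all tested genes were lower, and the share lower at all 3 was not computed. H1-4 had 0.39, 0 and 0.33 normalised CPM at 100 nM, 0.643, 0.116 and 0.486 at 1000 nM and 0.514, 0.762 and 0.475 at 10000 nM, all below its DMSO range of 1.04 to 2.4. The 0 is that of the well of 70767 counts and is within its counting error. The log2 fold changes of H1-4 were -2.26, -2.06 and -1.64 (SE 0.37, 0.34 and 0.26). H1-1 had 0.177, 0 and 0, then 0, 0 and 0.0728, then 0.0791, 0.109 and 0 in the same order, below the 0.348 to 0.859 of the 17 deeper DMSO wells (log2 fold changes -2.07, -3.40 and -3.04, SE 0.55, 0.56 and 0.49). The first 0 of H1-1 at 100 nM is that of the same shallow well. The linker genes H1-2 and H1-4 thus moved in opposite directions on the TMM scale, and both were lower than DMSO on the mitochondrial scale.

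Among the core histone genes, H4C14 had 19.7, 12.0 (the shallowest well) and 12.1 normalised CPM at 100 nM, 14, 18 and 21.9 at 1000 nM and 21.9, 19 and 21.6 at 10000 nM, all below the lowest DMSO well of 24.1. Its log2 fold changes were -1.18, -1.03 and -0.86 (SE 0.31, 0.26 and 0.24), so that it was not called at 10000 nM, and the value at 1000 nM was -0.88 in DESeq2 and without replicate 1. With H4C15 added, the sum was lower at all 3 doses, with log2 fold changes of -1.35, -1.18 and -1.13 (SE 0.19, 0.15 and 0.14) and an adjusted p of 1.2e-07 at 10000 nM. H4C8 had 4.37, 0 and 1.43 at 100 nM, where the 0 is that of the shallowest well and 1.43 lies just under the lowest DMSO well of 1.53. At the higher doses it had 5.02, 4.19 and 4.93, then 5.3, 6.1 and 5.98, within its range over all 18 DMSO wells. It was called at no dose (log2 fold changes -0.17, 0.44 and 0.70). The highest DMSO value, 7.01, is that of the well of 460014 counts, and the 17 deeper wells reached 4.61. All 3 wells at 10000 nM, and those of 5.02 and 4.93 at 1000 nM, were above these 17. H2AC6 was lower at 100 nM, with 11.4, 0 (the shallowest well) and 10.2 against at least 20.2 in DMSO wells (log2 fold change -1.39, SE 0.23), but had 36.9, 29.1 and 38.0 at 1000 nM and 33.5, 34.4 and 28.8 at 10000 nM (0.29 and 0.15, not called). H2BC11 went the same way, with 10.2, 0 (the shallowest well) and 8.04 at 100 nM (-1.05, SE 0.18) and values within the DMSO range or just above it at the higher doses (0.05 and 0.30). H1-6 had no more than 0.071 in any triptolide well, and H2AC25 had none in any.

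Triptolide and homoharringtonine were then compared directly at each dose, 3 wells against 3. At 100 nM 22 of 35 histone genes were higher with homoharringtonine and 1 with triptolide (27.4% and 20.5% of all genes). DESeq2 gave 8 and 0 there, and the 1 gene, H4C15, was no longer higher when near-identical pairs were summed. At 1000 nM 25 of 40 were higher with homoharringtonine and 0 with triptolide (35.9% and 22.6%), and at 10000 nM 34 of 39 and 0 (37.9% and 30.2%). Of the 35 genes tested against DMSO throughout, 21 and 30 were higher with homoharringtonine at these 2 doses. At an unadjusted p under 0.05, 0 were higher with triptolide at 1000 nM and 3 at 10000 nM, and DESeq2 called none at either dose. The widest gaps at 10000 nM, as log2 differences of triptolide from homoharringtonine among genes with counts in both groups, were those of H3C4 (-6.23, SE 0.22), H2AC7 (-6.03, SE 0.24), H3C14 (-4.90, SE 0.16) and H4C14 (-4.64, SE 0.09). H1-2 (0.30, SE 0.11) and H2BC12 (0.44, SE 0.14) differed little, and their wells overlapped. Against the shared DMSO wells, 10 genes at 10000 nM were lower with triptolide and higher with homoharringtonine, and 3, H1-2, H2BC4 and H2BC12, were higher with both on the TMM scale. On the mitochondrial scale all 3 were lower with triptolide at that dose, by log2 fold changes of -1.50, -1.71 and -1.24. The 10 genes include both H3C14 and H3C15, which are 1 measurement. Against DMSO at 10000 nM, 30.2% of all tested genes were lower with triptolide and 23.6% higher with homoharringtonine. The shares of all genes with these joint patterns were not computed.

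Nilotinib at 10000 nM lowered histone genes, in a smaller and more even way. Of 35 tested, 9 were lower and 0 higher, where 0.709% of 18616 tested genes were lower and 2.41% higher. They were H1-1, H2AC7, H2AC13, H2BC4, H2BC7, H2BC13, H3C4 and the H3C14 and H3C15 pair, so that no H4 gene was among them. All 35 had a log2 fold change below 0, 20 with an adjusted p under 0.05, and the median was -0.71, against 0.01 over all genes. With the same DMSO wells, 0 of 35 were above 0 with 100 nM MK-2206 too, where 0 were called. The number above 0 was 1 with 1000 nM nilotinib, 2 with 10000 nM pyrazolanthrone and 18 with 100 nM pyrazolanthrone. H2BC4 had 3.18, 3.74 and 4.53 normalised CPM, all below the lowest DMSO well of 6.83 (log2 fold change -1.19, SE 0.22, adjusted p = 0.00055). H3C14 had 1.76, 2.02 and 3.34, also all below DMSO (-1.28, SE 0.21, adjusted p = 0.00011). H2BC12 had 50.7, 59.4 and 69.3, overlapping DMSO (-0.56, SE 0.19), and H1-2 had 76.1, 88.2 and 96.4, also overlapping (-0.42, SE 0.17). The summed histone level was 905.6 to 1131 TPM, below all DMSO wells. The median log2 fold change at 100 nM and 1000 nM was -0.20 and -0.44, with the same DMSO wells, and no gene was called at these doses.

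In the other 11 comparisons with DMSO, which are the lower doses of nilotinib and all doses of pyrazolanthrone, miglitol and MK-2206, edgeR called 0 histone genes higher and 0 lower. Among all genes the called shares there were 0.342% higher and 0.581% lower for pyrazolanthrone at 100 nM, 0.0% and 0.0% at 1000 nM and 0.589% and 0.568% at 10000 nM, and 0.702% and 0.778%, then 0.745% and 0.383% for nilotinib at 100 nM and 1000 nM. Miglitol gave 0.0% at every dose, and MK-2206 0.0054% and 0.0% at 100 nM, 0.194% and 0.0918% at 1000 nM and 0.56% and 0.151% at 10000 nM. At an unadjusted p under 0.05 the number of lower histone genes ran from 1 to 14 of 35, with 14 for nilotinib at 1000 nM and 10 for pyrazolanthrone at 10000 nM, and the number of higher ones was at most 1. Over all 12 comparisons of these 4 compounds, that of 10000 nM nilotinib included, DESeq2 called 0 higher and 10 lower. Medians of the histone genes ran from -0.44 to 0.04, and the design with 3 wells a group does not show that these compounds left the genes unchanged.

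Genes that make, protect or use histone mRNA were examined as lists. Of 13 genes of histone mRNA transcription and 3′ processing, 8 were lower with triptolide at 1000 nM and 9 at 10000 nM, where 30.4% and 30.2% of all tested genes were lower, and none was higher. The largest falls at 10000 nM were those of ZNF473, a zinc finger protein of the U7 particle (log2 fold change -4.53, SE 0.22), NPAT, a coactivator of histone genes (-4.12, SE 0.50), LSM11, a U7 ring protein (-3.99, SE 0.28), and CASP8AP2 (-3.63, SE 0.50). SLBP, named here after its values were seen, went from 41.9 ± 5.61 normalised CPM in DMSO wells (SD, n = 18) to 5.92 ± 0.227 (SD, n = 3) with 10000 nM triptolide (-2.88, SE 0.13) and was 45.7 ± 1.43 with 10000 nM homoharringtonine (0.08, SE 0.10, adjusted p = 0.47). With homoharringtonine at 10000 nM, 4 of the 13 were higher and 1 lower (23.6% and 23.4% of all tested genes), namely ZNF473 (2.11, SE 0.12), NPAT (1.58, SE 0.30), GON4L (1.49, SE 0.12) and CPSF3 (1.05, SE 0.18) against LSM10 (-2.70, SE 0.18).

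Of 9 genes of histone mRNA decay, 5 were lower with 10000 nM triptolide and 4 higher with 10000 nM homoharringtonine, against the same 30.2% and 23.6% of all genes. TUT7, which adds uridines to RNA ends, fell by 3 (SE 0.23) with triptolide and rose by 2.88 (SE 0.14) with homoharringtonine, and XRN1, the cytoplasmic 5′ exonuclease, rose by 2.37 (SE 0.21) with homoharringtonine, all on the log2 scale. Of 20 S phase genes, 4 were lower and 0 higher with 10000 nM homoharringtonine, a lower share near the 23.4% of all tested genes. The 4 were FEN1 (-2.22, SE 0.09), MCM3 (-1.66, SE 0.11), CCNE1 (-1.36, SE 0.08) and GINS2 (-1.31, SE 0.11). At 10000 nM triptolide 3 were higher and 6 lower (16.2% and 30.2% of all genes), with CDT1 (-3.34, SE 0.18) and CCNE2 (-3.19, SE 0.35) the lowest, and with 10000 nM nilotinib 1 was lower (0.709% of all genes) and the median log2 fold change was -0.46.

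Replacement histones are made outside S phase as well, mostly from genes with ordinary poly(A) signals. The counts of these and the next lists are to be read against the shares of all genes just given for the same comparisons. With 10000 nM homoharringtonine 2 of 12 were higher and 2 lower, with a median log2 fold change of -0.16. H3-3B, an H3.3 gene, rose from 727 ± 68.2 to 2760 ± 126 normalised CPM (SD, n = 18 and n = 3; log2 fold change 1.90, SE 0.08), and H2AX, whose window also holds the stem-loop letters, fell (-2.27, SE 0.20). With 10000 nM triptolide 2 of 11 tested were higher and 4 lower; H3-3B fell (-1.63, SE 0.10) and H3-3A, the other H3.3 gene, rose on the TMM scale (1.24, SE 0.09). Of 17 histone chaperone genes, 2 were higher and 2 lower with 10000 nM homoharringtonine, and 1 and 4 with 10000 nM triptolide, where CHAF1A, a subunit of the replication-coupled chaperone CAF-1, fell by 2.67 (SE 0.16) on the log2 scale. Of 12 factors of the poly(A) tail, 2 were higher and 1 lower with homoharringtonine, and 2 and 3 with triptolide; PAPOLG, a poly(A) polymerase, rose with the first (2.39, SE 0.21) and fell with the second (-5.11, SE 0.40).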

How the data were processed

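Each of the 72 files gives 60371 Ensembl genes. The deposited expected counts are the authors' RSEM estimates of reads per gene, not normalised; the deposited TPM and FPKM values were scaled by the authors to gene length and library size, and FPKM served only to recover lengths. The submitters' processing notes list HTSeq, RSEM, DESeq2 and GRCh38; the RSEM version, aligner, annotation release and strand setting are not given in the sources used here. Rounded expected counts went into the quasi-likelihood test of edgeR 4.0.16 in R 4.3.3, after filterByExpr (minimum count 10) and TMM scaling, with p-values adjusted by Benjamini-Hochberg over all genes tested. Each group entered with the 18 DMSO wells, or with the other treated group, without covariates. SE is the standard error of the log2 fold change. On simulated counts with changes set at a log2 fold change of 2, 200 of 200 changed genes were recovered for homoharringtonine at 1000 nM (14310 genes). There was 1 false call, and the run does not cover calls near the fold threshold of 1. Alternatives were DESeq2 1.42.0, library sizes only, scaling to 13 mitochondrial mRNAs, no filter, at least 10 counts in every well, near-identical pairs summed, a fragment length covariate, a replicate block, leaving out shallow libraries and leaving out each replicate. Values in every well are given for the 2 members of each family with the highest DMSO TPM and the 3 largest rises and falls with triptolide and homoharringtonine at 1000 nM; list genes are at most 4 per comparison by size. The members and lists were chosen with earlier results of these data known. Files hold no coordinates; positions come from GRCh38. Intervals and floors cover counting error only. Replicate numbers did not pair the wells by the rule used (every pair's correlation over 0.1), except for MK-2206 at 1000 nM. Against DMSO, the replicate block kept only the DMSO wells numbered as the treated wells. The value of 1 cell type marker is not reported here.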

Additional observations from a re-analysis of the deposited data

How the results depend on the processing

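Of the alternatives run, the one that moved the counts of higher genes with homoharringtonine against DMSO by more than 1.5 times was the demand for 10 counts in every well, which left 5, 6 and 7 higher genes with rising dose because it removes most histone genes from the test. That filter also gave 0 higher and 0 lower at 100 nM triptolide, 2 and 1 at 1000 nM, 0 lower at 10000 nM, 0 lower at 100 nM homoharringtonine, 0 higher with triptolide and 1, 8 and 17 higher with homoharringtonine in the direct comparisons, and 1 lower over the 12 comparisons of the other 4 compounds. With no filter there were 8 higher at 100 nM triptolide, 1 lower at 10000 nM homoharringtonine and 5 higher with triptolide in the direct comparison at 100 nM. Scaling to mitochondrial mRNAs gave 0 higher with triptolide at each dose, 30, 33 and 35 lower, 0 higher with triptolide and 34 higher with homoharringtonine in the direct comparison at 100 nM, 40 higher with homoharringtonine at 1000 nM, and 31 lower over the other 4 compounds. It reversed H2AC20 at 100 nM (-0.65) and 1000 nM (-1.19), H1-2 at 1000 nM (-1.36) and 10000 nM (-1.50), H2BC12 (-0.90 and -1.24) and H4C3 at 1000 nM (-0.90), all with triptolide. Library sizes alone gave 0, 1 and 1 higher with triptolide. DESeq2 gave 5 higher at 10000 nM triptolide and 0 and 8, in place of 1 and 22, in the direct comparison at 100 nM. Without the shallow libraries there were 4 higher at 100 nM triptolide, and 2 higher with triptolide in the direct comparison. The fragment length covariate gave 0 higher at 100 nM triptolide. Summing near-identical pairs gave 0 lower at 100 nM homoharringtonine and 0 higher with triptolide against it. Apart from the filters and the summing, which change the genes tested, the cause was not tested.

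Leaving out each replicate in turn gave, for higher and lower genes, 1 to 4 and 6 to 13 at 100 nM triptolide, 3 to 6 and 9 to 13 at 1000 nM, and 3 and 10 to 12 at 10000 nM. It gave 25, 27 to 35 and 32 to 35 higher with homoharringtonine, 1 to 2 higher with triptolide in the direct comparison at 100 nM, 19 to 27, 20 to 27 and 33 to 34 higher with homoharringtonine, and 7 to 11 lower over the other 4 compounds. The counts that moved by over 1.5 times were those of higher genes without triptolide 100 nM replicate 2 (4, and 2 in the direct comparison), without triptolide 1000 nM replicate 2 (3) and, in the direct comparison, without any 1 homoharringtonine 100 nM well (2). Of the genes named, the calls lost their fold or p threshold for H2AC20 (0.69), H2BC11 (-0.91) and H4C14 (-0.89) without triptolide 100 nM replicate 3, which also took H3C14 to -0.91 in the direct comparison. Without triptolide 1000 nM replicate 1 they did for H4C14 (-0.88) and H4C3 (0.57), without replicate 2 for H4C3 (1.37), and without homoharringtonine 1000 nM replicate 1 for H2BC12 (0.78) and H1-1 (0.91). Other settings also lost calls of named genes. Library sizes alone gave H1-2 0.67 and 0.79 at 1000 nM and 10000 nM triptolide, H2AC20 0.76 and 0.83 at 100 nM and 1000 nM, H4C3 0.99, H2BC11 0.89 at 100 nM and H2BC12 0.96 at 1000 nM homoharringtonine. The mitochondrial scale gave H2BC11 0.99 at 100 nM, and H1-2 0.79 and H2BC12 0.91 at 10000 nM homoharringtonine. DESeq2 gave H4C14 -0.88 at 1000 nM triptolide and missed the p threshold for H2AC25 at 1000 nM and 10000 nM homoharringtonine (adjusted p = 0.071 and 0.065), and for H3C14 (0.065) and H1-1 (0.17) in the direct comparison at 100 nM. Without shallow libraries H4C14 had -0.84 and H4C3 0.55, the fragment length covariate took H2AC20 to 0.96 at 100 nM and H4C14 to just inside -1 at 1000 nM triptolide, and with no filter H4C3 had an adjusted p of 0.06.

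Same-numbered wells did not deviate together (mean correlation -0.058, against 0.029 for other pairs), apart from MK-2206 at 1000 nM. In comparisons with DMSO, the fits with the replicate block kept only the DMSO wells numbered as the treated wells. The part of the block and that of the fewer control wells cannot be told apart. In these fits there were 0 higher at 100 nM and 3 at 1000 nM triptolide, and 17 lower over the other 4 compounds in place of 9. The same fits took H2BC12 to 0.79 at 1000 nM and 0.97 at 10000 nM, H1-2 to 0.91 at 10000 nM and H2BC11 to the threshold of 1 at 100 nM homoharringtonine, and H2AC20 to an adjusted p of 0.29 at 100 nM and 0.057 at 1000 nM triptolide. Of the 24 genes never tested, 3 had no count in any of the 72 wells, and what keeps their counts low was not tested.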
